A study of Mus musculus with 9 samples.

Results

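The genes described here are 45 nuclear genes that keep, read and translate the mitochondrial genome, taken from a list of symbols and found by Ensembl ID among the 48795 gene IDs of the RNA count files. By role they are 6 replication and nucleoid genes, 9 transcription genes, the pair Lrpprc and Slirp, which hold mitochondrial mRNAs, 6 nuclear regulators of mitochondrial biogenesis, 16 mitochondrial tRNA synthetases and 6 translation factors. All 45 had an ID and all 45 passed the filter on low counts. RNA-seq was measured in 3 tatcre and 3 mock libraries of follicular B cells, taken from mouse spleen by selection on CD23. The animals were C57BL/6 with a floxed Yy1 gene, yy1 f/f, in both groups. TAT-CRE, a Cre recombinase that enters cells, was given to the tatcre cells to delete Yy1, and mock cells received a mock treatment. LPS and IL-4, a stimulus that activates B cells, were in the medium of both groups. The series text gives 72 hours and 10% serum and the sample text 48 hours and 20% serum. The sources used here give neither sex nor age. The sample text lists the recombinase for every sample, so groups were taken from the titles. The series text describes spleens of 3 mice divided over the treatments, but no label ties a library to a mouse, so the p-values speak only to how these libraries spread. Exposure to the recombinase and loss of Yy1 cannot be told apart in this design.

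Mitochondria carry a small circular genome that encodes core subunits of the respiratory chain together with the rRNAs and tRNAs needed to translate them. Everything else that copies, transcribes and translates it is made from nuclear genes and imported. POLG, the helicase Twinkle and the single-strand binding protein SSBP1 copy the DNA, TFAM packages it and, with TFB2M and the polymerase POLRMT, starts transcription, and a separate set of tRNA synthetases charges the mitochondrial tRNAs. The nuclear factors NRF1 and GABP and the PGC-1 coactivators are known to drive many of these genes. In mouse skeletal muscle YY1 has been described as a partner of PGC-1alpha on mitochondrial genes.

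The libraries held 22729187 to 24471132 gene counts in tatcre cells and 24842380 to 28230727 in mock cells. Levels below are counts-per-million (CPM) after library scaling, not divided by gene length, so they are compared between groups and never between genes. Yy1 stood at 0.984, 1.503 and 2.01 CPM in tatcre libraries 1 to 3, against 100, 112 and 108 CPM in mock libraries 1 to 3. Its log2 fold change, here always tatcre over mock, was -6.15 (SE 0.17). The B cell markers Cd79a, Cd79b, Ms4a1 and Pax5 had at least 3053 counts in every library. Of the 6 B cell markers reported here Fcer2a, which encodes CD23, Cr2 and Pax5 were called lower, and Cd79a, Cd79b and Ms4a1 were not called. Their summed level was 3027 to 3189 CPM in tatcre and 3695 to 4062 CPM in mock cells, without overlap, and its part in the results was not tested. Summed T cell markers were 1.32 to 2.01 CPM in tatcre and 1.36 to 2.04 CPM in mock cells. The myeloid sums were 1.16 to 2.30 CPM in tatcre and 0.469 to 1.25 CPM in mock cells, and the NK cell sums 0.281 to 0.543 CPM in tatcre and 0.667 to 0.809 CPM in mock cells. Erythroid and platelet markers summed to 0.615 to 1.12 CPM in tatcre and 0.340 to 0.630 CPM in mock cells. The plasma cell sums were 307 to 358 CPM in tatcre and 352 to 408 CPM in mock cells. Of these other markers Cd14, S100a8, S100a9, Klrd1 and Hbb-bs had 0 counts in every library. In such bulk RNA fewer cells of a type and less RNA per cell cannot be told apart. All 37 genes of the mitochondrial genome itself are listed at 0 in every library, so its own transcripts could not be set beside the factors that make them.

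Loss of Yy1 RNA went with a mixed pattern among the 45 genes. The coactivator gene Ppargc1b, the synthetase genes Wars2, Lars2 and Sars2, the mRNA stability gene Slirp and the transcription factor gene Tfb2m fell. The DNA-binding genes Ssbp1 and Mterf2, the initiation factor gene Mtif2 and the synthetase genes Aars2, Fars2, Iars2, Pars2, Vars2 and Yars2 rose. The other 30 members, among them Tfam, Polrmt, Polg, Twnk, Nrf1 and Gabpa, were not called. Thus 6 of 45 (13.3%) were called lower and 9 of 45 (20%) higher by edgeR's quasi-likelihood test at a Benjamini-Hochberg adjusted p below 0.05. Over all 15546 genes tested the same rule called 16.3% lower and 10.8% higher. All tatcre values lay below all mock values for 10 members (22.2%) and above them for 13 (28.9%), against 23.3% and 20.6% of all genes tested. The median log2 fold change of the members was 0.05, beside 0.02 for all genes tested. With upper-quartile factors or library size alone as scaling, 5 members were called lower and 14 higher. Over all genes these scalings called 2097 and 1894 lower and 2229 and 2614 higher, against 2536 and 1679 as reported. The median of all genes tested moved with them, to 0.09 and 0.13. Leaving out tatcre 1 gave 4 lower and 5 higher members, with 1975 genes lower and 1002 higher over all. Leaving out tatcre 3 gave 5 lower and 5 higher members, with 2391 genes lower and 1384 higher over all.

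**Figure D1:**
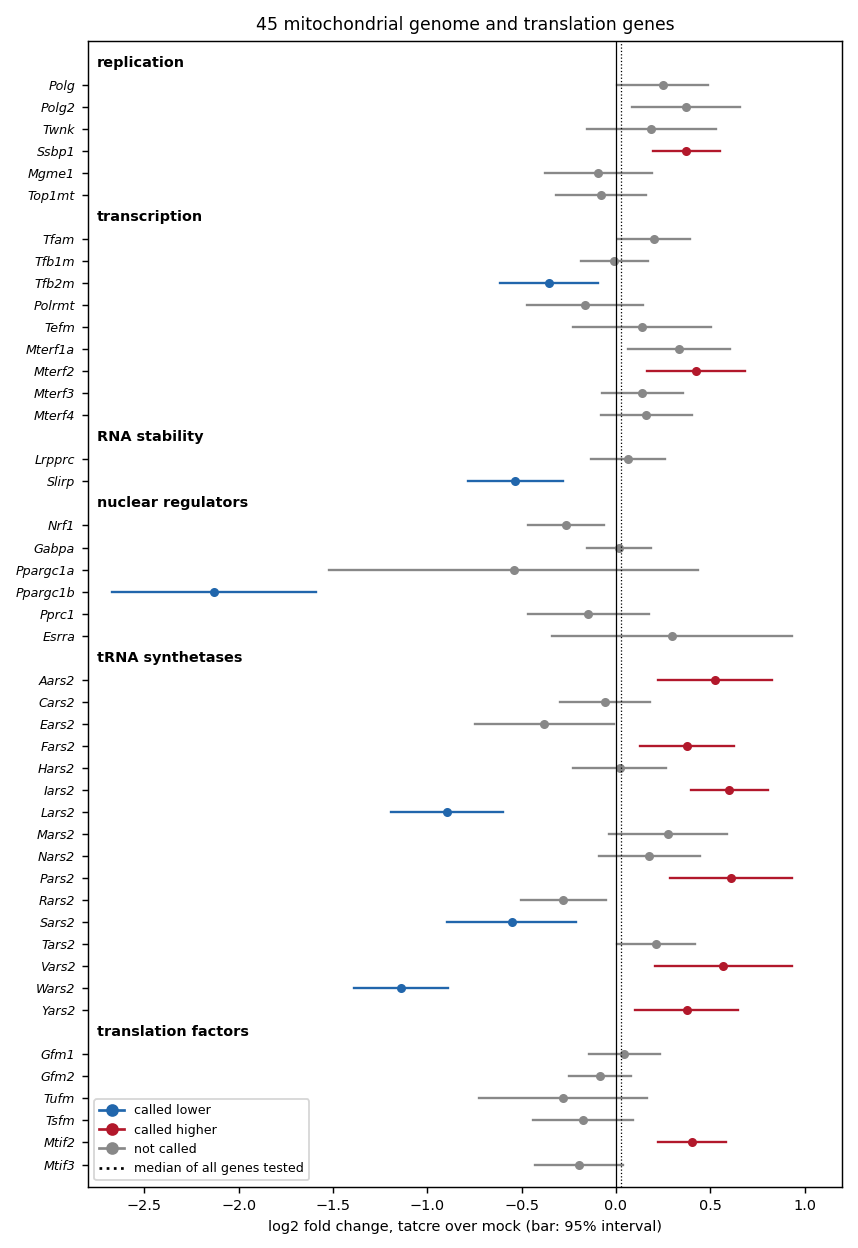
The log2 fold change of tatcre over mock (x axis) is drawn for each of the 45 genes (y axis), grouped by role, with its 95% interval as a bar. Blue marks the 6 genes called lower, red the 9 called higher and grey the rest, and the dotted line is the median of all genes tested at 0.02. Ppargc1b at -2.13 and Wars2 at -1.14 lie farthest to the left, and both blue and red occur among the synthetases.

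Because YY1 is the factor removed, the promoters were searched for its usual motif, AANATGGC, where N is any base, on both strands from 250 bases before to 50 after the RefSeq start in GRCm38.p6. Of the members, 39 had a promoter in the RefSeq table. A match was present in 7 of these 39 (17.95%), in 10.2% of the 10007 tested genes with a promoter, and in 6.96% of all 27025 genes of the table. Of the 15 called members 13 had a promoter there, 5 of the 6 called lower and 8 of the 9 called higher, and the others were not searched. Among those searched a match lay in 3 of 5 genes called lower (Wars2, Lars2 and Slirp) and in 2 of 8 called higher (Aars2 and Yars2). Over all tested genes with a promoter it lay in 16.9% of those called lower and in 9.84% of those called higher. The uncalled members with a match were Mgme1 and Gabpa. The matches of the 5 called members just after the start are shown, from genes called in both directions. These windows were found by the motif, so the letters they share follow from the search and nothing is read from them. Each line reads 5′ to 3′ on the plus strand, which is the coding strand of all 5 genes, with the motif in capitals.
Wars2, called lower, chr3:99141085-99141114: ccgcccttctcAAGATGGCgctgttctctg
Lars2, called lower, chr9:123366936-123366965: gttgttttgccAACATGGCggcgcccagag
Slirp, called lower, chr12:87443916-87443945: cattccgttttAACATGGCagcctccgcca
Aars2, called higher, chr17:45506840-45506869: tgcccggagctAAGATGGCggtggcgttgg
Yars2, called higher, chr16:16302970-16302999: gcgtgtcccgcAAGATGGCggcgcccatgc
Counting the start base as +1, the motif began at +7 in Wars2, +21 in Lars2, +32 in Slirp and +17 in Yars2. In Aars2 it began at +20 or +11, by which of its starts is used. The starts used for Wars2 and Aars2 lie inside their RefSeq gene spans, which begin at 99140107 and 45503515. A match describes letters only, and whether YY1 sat there was not tested. The deposited peak lists hold peaks past the last chromosome 7 gene of GRCm38, which leaves their build in doubt. For that reason the lists were not laid on these genes.

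Motifs of the nuclear regulators were searched in the same windows. The ETS motif that GABP reads, CCGGAAGT, was found in 8 of 39 members (20.5%), against 9.26% of tested genes. Its carriers were Tfam, Polg, Twnk, Tefm, Mterf1a, Rars2, Gfm1 and Tufm, all among the members not called. Over all tested genes with a promoter the ETS motif lay in 6.19% of those called lower and 9.84% of those called higher, and with 13 called members searched nothing is read from its absence there. The NRF1 core CGCATGCG was found in 4 members (10.3%), namely Tfb2m, Wars2, Vars2 and Gabpa, against 4.48% of tested genes. The E-box CACGTG was found in 1 member (2.56%), Ears2, against 11.8% of tested genes, and the cAMP response element TGACGTCA in 1 member, Mterf1a, against 3.6% of tested genes. No member held the estrogen-related receptor motif TCAAGGTCA, present in 0.34% of tested genes. Matches of different motifs did not overlap within a member.

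**Figure D2:**
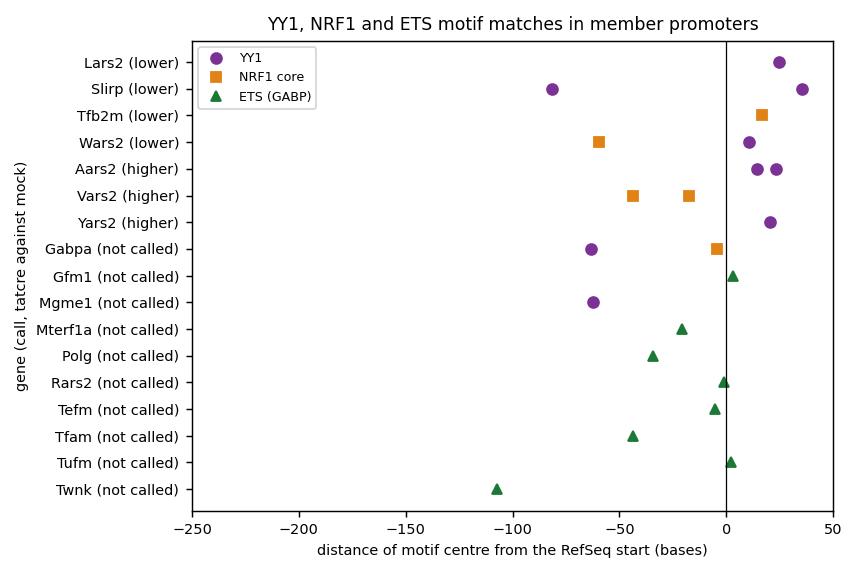
Each symbol is a match of the YY1 (circle), NRF1 (square) or ETS (triangle) motif in a member's promoter, placed by the distance of its centre from the RefSeq start in bases (x axis), with genes down the y axis ordered by call. The YY1 matches of Lars2, Wars2, Aars2 and Yars2 lie after the start, Slirp has a match on either side of it, and the ETS matches lie in genes that were not called; the pair of circles for Aars2 is 1 site seen from 2 annotated starts.

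The nuclear regulators were examined next. Ppargc1b, which encodes the coactivator PGC-1beta (ENSMUSG00000033871, chromosome 18), fell 4.38-fold. Its level was 1.07, 1.04 and 1.28 CPM in tatcre libraries 1 to 3, from 25 to 32 counts each, against 4.23, 5.48 and 5.20 CPM in mock libraries 1 to 3, from 112 to 148 counts. The highest tatcre value was thus far under the lowest mock value (log2 fold change -2.13, SE 0.25, edgeR adjusted p = 0.000132). Mir378a, a microRNA gene, and 2 long noncoding RNA genes lie within or over the span of Ppargc1b in RefSeq. Its relative Ppargc1a, which encodes PGC-1alpha, had low counts like Ppargc1b, with 17 to 27 counts in tatcre and 19 to 42 in mock libraries. No difference could be shown for it at this depth (log2 fold change -0.54, 95% interval -1.52 to 0.44). Pprc1, the third family member, was at 84.0, 70.9 and 104 CPM in tatcre against 82.4, 113 and 91.6 CPM in mock libraries, and the groups overlapped (edgeR adjusted p = 0.476).

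Nrf1 encodes nuclear respiratory factor 1, and missed the threshold. It stood at 52.5, 51.4 and 53.0 CPM in tatcre libraries against 62.3, 69.6 and 56.7 CPM in mock libraries, so that the groups did not overlap. The log2 fold change was -0.27 (SE 0.09, edgeR adjusted p = 0.0513). Nrf1 was called lower without mock 3 (edgeR adjusted p = 0.0251), without the count filter (0.0223) and by DESeq2 (adjusted p = 0.044). Upper-quartile factors (edgeR adjusted p = 0.118) and library size alone (0.201) moved it further from the threshold. Gabpa, the DNA-binding subunit of GABP, was at 327, 359 and 333 CPM in tatcre against 313, 353 and 343 CPM in mock libraries. Its interval was narrow, with a log2 fold change of 0.01 (95% interval -0.16 to 0.19). Esrra, which encodes an orphan nuclear receptor that works with PGC-1, had 68 to 131 counts in tatcre and 62 to 101 counts in mock libraries and was not called (log2 fold change 0.30, 95% interval -0.34 to 0.93).

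Genes known to work with or against these regulators were listed separately. Of 22 such genes tested, 7 were called lower (31.8%) and 3 higher (13.6%), beside 16.3% and 10.8% of all genes tested. Prkaa1, which encodes a catalytic subunit of the energy-sensing kinase AMPK, averaged 26.0 ± 1.46 CPM in tatcre and 78.7 ± 6.69 CPM in mock cells (SD, n = 3 each), a 3.03-fold fall. Gabpb2, which encodes a beta subunit that pairs with GABPA, averaged 517 ± 37.7 CPM in tatcre and 268 ± 25.2 CPM in mock cells, a 1.93-fold rise. Gabpb1, the gene of the other beta subunit, was at 85.4 ± 4.33 CPM in tatcre and 102 ± 6.38 CPM in mock cells and was called lower (edgeR adjusted p = 0.0442). The 2 beta subunit genes were thus called in opposite directions while Gabpa was not called. Rxra, a nuclear receptor partner gene, averaged 1.54 ± 0.671 CPM in tatcre and 7.21 ± 2.19 CPM in mock cells, and Myc 179 ± 19.4 CPM in tatcre and 304 ± 31.9 CPM in mock cells, both called lower (edgeR adjusted p = 0.000734 and 0.000368). Rxra and Gabpb1 were named after their values were seen.

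Among the 6 replication and nucleoid genes 1 was called, and it rose (16.7%, beside 10.8% of all genes tested called higher). Ssbp1, which coats single-stranded mitochondrial DNA (ENSMUSG00000029911, chromosome 6, 40471414 to 40481823 in GRCm38), was at 312, 333 and 315 CPM in tatcre libraries against 223, 259 and 260 CPM in mock libraries. All tatcre libraries were above all mock libraries, a difference of 0.37 on the log2 scale (SE 0.08, edgeR adjusted p = 0.00625). Polg2, the accessory subunit of the DNA polymerase, showed a change of the same size with more spread. It was at 16.7, 15.8 and 17.1 CPM in tatcre against 13.2, 14.5 and 10.6 CPM in mock libraries (log2 fold change 0.37, SE 0.13, edgeR adjusted p = 0.0568), and was called higher without mock 2 (edgeR adjusted p = 0.045), with RLE factors (0.0444), with upper-quartile factors (0.028) and with library size alone (0.023). Polg, the catalytic subunit, was at 43.8, 34.9 and 44.1 CPM in tatcre against 36.8, 32.1 and 34.5 CPM in mock libraries. Tatcre 2 lay among the mock values, and Polg was called higher without it (edgeR adjusted p = 0.0196, against 0.118 with all libraries), with upper-quartile factors (0.0475) and with library size alone (0.034). Twnk, the helicase, was at 25.1, 25.0 and 32.4 CPM in tatcre against 21.0, 30.0 and 21.5 CPM in mock libraries and overlapped (edgeR adjusted p = 0.391). The nuclease gene Mgme1 and the topoisomerase gene Top1mt were not called either, at log2 fold changes of -0.09 and -0.08. In RefSeq Polg overlaps the protein-coding gene Fanci by 4036 bases, Twnk overlaps Mrpl43 by 780 and Polg2 overlaps Milr1 by 591, so their counts carry that uncertainty.

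In the wider replication, repair and nucleoid list 4 of 14 genes were called lower (28.6%) and 2 higher (14.3%), beside the same 16.3% and 10.8%. Apex1, the abasic site endonuclease of nucleus and mitochondria, averaged 145 ± 16.5 CPM in tatcre and 245 ± 34.8 CPM in mock cells. Lonp1, the matrix protease known to degrade TFAM, averaged 108 ± 6.09 CPM in tatcre and 142 ± 7.53 CPM in mock cells, while Mpv17, an inner membrane protein needed to keep mitochondrial DNA, averaged 20.9 ± 0.748 CPM in tatcre and 15.4 ± 0.660 CPM in mock cells. All 3 were called (edgeR adjusted p from 0.000761 to 0.00728). Of 12 tested nucleotide supply genes 3 were called lower (25%) and 1 higher (8.33%). The succinyl-CoA ligase genes Suclg2 (13.6 CPM in tatcre, 38.3 CPM in mock) and Sucla2 (76.3 CPM in tatcre, 135.5 CPM in mock), whose enzyme is tied to the mitochondrial nucleoside diphosphate kinase, fell 2.82- and 1.78-fold. Nme4, the gene of that kinase, rose 1.51-fold (14.1 CPM in tatcre, 9.36 CPM in mock).

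The transcription genes showed 1 fall and 1 rise among 9 (11.1% each, beside 16.3% and 10.8% of all genes tested). Tfb2m, the factor that melts the promoter for the polymerase (ENSMUSG00000026492, chromosome 1, 179528052 to 179546305), was at 25.2, 26.1 and 24.1 CPM in tatcre against 27.3, 37.4 and 31.8 CPM in mock libraries. The groups did not overlap, but the mock values spread widely and the call was marginal (log2 fold change -0.35, SE 0.12, edgeR adjusted p = 0.0466). It was lost under 9 of 12 alternatives, including the leaving out of tatcre 1 (edgeR adjusted p = 0.108), tatcre 2 (0.056), tatcre 3 (0.104), mock 2 (0.171) or mock 3 (0.0723), RLE factors (0.0552), upper-quartile factors (0.0934) and library size alone (0.131). Mterf2, of the mitochondrial termination factor family (ENSMUSG00000049038, chromosome 10, 85119433 to 85128027), was at 26.7, 30.2 and 27.8 CPM in tatcre against 21.7, 17.9 and 23.7 CPM in mock libraries. It rose by 0.42 on the log2 scale (SE 0.12, edgeR adjusted p = 0.0217), a call that ended without tatcre 1 (0.0515), tatcre 2 (0.0522) or mock 2 (0.0845).

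Tfam and Polrmt, which start transcription together with Tfb2m, were not called. Tfam was at 74.3, 77.1 and 81.7 CPM in tatcre against 62.1, 68.9 and 71.8 CPM in mock libraries. All tatcre values were above all mock values, yet the difference missed the threshold (log2 fold change 0.20, SE 0.09, edgeR adjusted p = 0.107). Upper-quartile factors (0.0259) and library size alone (0.0134) each brought it past the threshold. Polrmt was at 11.7, 10.4 and 12.6 CPM in tatcre against 12.9, 14.97 and 11.1 CPM in mock libraries, with a log2 fold change of -0.16 (95% interval -0.47 to 0.15). Tfb1m, the methyltransferase related to Tfb2m, had a log2 fold change of -0.01 (95% interval -0.19 to 0.17). Mterf1a was at 16.7, 20.3 and 16.2 CPM in tatcre against 15.1, 13.2 and 13.9 CPM in mock libraries. Its groups did not overlap (edgeR adjusted p = 0.0658; 0.0414 with upper-quartile factors and 0.0286 with library size alone). Mterf1b, a close copy with which Mterf1a may share reads, averaged 3.40 ± 0.404 CPM in tatcre and 2.46 ± 0.487 CPM in mock cells and was not called; it was named for its likeness to Mterf1a. The elongation factor gene Tefm and the family members Mterf3 and Mterf4 lay at log2 fold changes of 0.14, 0.14 and 0.16 and were not called.

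LRPPRC and SLIRP form a complex that keeps mitochondrial mRNAs from decay, and of their genes only Slirp was called. Slirp (ENSMUSG00000021040, chromosome 12, 87443896 to 87449924) was at 25.9, 20.3 and 23.1 CPM in tatcre against 31.7, 36.9 and 31.6 CPM in mock libraries. All tatcre libraries were below all mock libraries, a 1.45-fold fall (log2 fold change -0.53, SE 0.11, edgeR adjusted p = 0.00571). Lrpprc stood at 106, 108 and 116 CPM in tatcre against 96.3, 116 and 103 CPM in mock libraries and overlapped (log2 fold change 0.06, 95% interval -0.13 to 0.26). Whether the 2 genes responded differently was not tested. The RefSeq span of Slirp overlaps Nrp by 122 bases and Snw1 by 15.

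Of 38 genes of mitochondrial RNA processing, decay and modification 7 were called lower (18.4%) and 3 higher (7.89%), near the 16.3% and 10.8% of all genes tested. The largest fall was that of Hsd17b10, whose protein is a subunit of the mitochondrial RNase P, with 3.06 ± 0.518 CPM in tatcre and 31.5 ± 1.298 CPM in mock cells. Trmt10c, the gene of its methyltransferase partner in the same complex, averaged 57.1 ± 5.38 CPM in tatcre and 57.1 ± 7.89 CPM in mock cells and was not called. Pnpt1, the polynucleotide phosphorylase of the RNA degradosome, averaged 108 ± 11.4 CPM in tatcre and 162 ± 11.3 CPM in mock cells. Ptcd2, of the pentatricopeptide family to which LRPPRC also belongs, averaged 43.0 ± 6.85 CPM in tatcre and 69.5 ± 4.89 CPM in mock cells. These 3 falls had edgeR adjusted p-values from 1.62e-07 to 0.00128. Trmt10c was named after its value was seen.

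The synthetases held most of the calls, 3 of 16 lower (18.8%) and 6 higher (37.5%), beside 16.3% and 10.8% of all genes tested. Wars2, the tryptophan enzyme (ENSMUSG00000004233, chromosome 3, 99140107 to 99221230), was at 7.26, 7.60 and 7.14 CPM in tatcre against 16.1, 15.8 and 16.7 CPM in mock libraries. Replicates were tight and far apart, a 2.21-fold fall (log2 fold change -1.14, SE 0.11, edgeR adjusted p = 4.99e-05). Lars2, the leucine enzyme (ENSMUSG00000035202, chromosome 9, 123366927 to 123462675), was at 15.95, 12.2 and 11.6 CPM in tatcre against 23.4, 26.9 and 23.8 CPM in mock libraries. It fell 1.86-fold, again without overlap (log2 fold change -0.90, SE 0.13, edgeR adjusted p = 0.000714). Sars2, the serine enzyme (ENSMUSG00000070699, chromosome 7, 28741957 to 28753879), was at 9.31, 8.35 and 12.6 CPM in tatcre against 13.9, 15.9 and 14.5 CPM in mock libraries. Its tatcre values spread more (log2 fold change -0.55, SE 0.16, edgeR adjusted p = 0.0225), and the call ended without tatcre 1 (0.0728), tatcre 2 (0.0581) or mock 2 (0.0814). A pseudogene, Gm18982, lies within the span of Wars2 and a long noncoding RNA gene, Gm46137, overlaps Lars2 by 8819 bases.

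The 6 rises among the synthetases were of at most 1.53-fold. Iars2, the isoleucine enzyme (ENSMUSG00000026618, chromosome 1, 185286642 to 185329419), was at 184, 216 and 177 CPM in tatcre against 118, 130 and 133 CPM in mock libraries, a 1.52-fold rise (log2 fold change 0.60, SE 0.09, edgeR adjusted p = 0.000889). Pars2, the proline enzyme (ENSMUSG00000043572, chromosome 4, 106651069 to 106655282), was at 7.13, 7.22 and 8.02 CPM in tatcre against 4.69, 5.11 and 4.86 CPM in mock libraries, a 1.53-fold rise (log2 fold change 0.61, SE 0.15, edgeR adjusted p = 0.0108). In both genes every tatcre library was above every mock library, and both calls held whichever library was left out. Aars2, the alanine enzyme, was at 14.6, 12.7 and 15.2 CPM in tatcre against 8.58, 11.2 and 9.71 CPM in mock libraries (log2 fold change 0.53, edgeR adjusted p = 0.0156). Its groups did not overlap, and the call ended without tatcre 1 (0.0594), tatcre 3 (0.0523) or mock 1 (0.0577).

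Vars2, Fars2 and Yars2, for valine, phenylalanine and tyrosine, rose with weaker calls. Vars2 was at 22.67, 17.3 and 28.0 CPM in tatcre against 14.1, 17.2 and 14.5 CPM in mock libraries. Tatcre 2 and mock 2 nearly met (log2 fold change 0.57, SE 0.16, edgeR adjusted p = 0.0259), and the call ended without tatcre 1 (0.0688), tatcre 3 (0.0923), mock 1 (0.0783) or mock 3 (0.0646). Fars2 was at 19.8, 17.3 and 20.4 CPM in tatcre against 15.6, 15.04 and 13.6 CPM in mock libraries (log2 fold change 0.38, edgeR adjusted p = 0.0309). Its groups stayed apart, yet the call ended without tatcre 1 (0.105), tatcre 3 (0.094), mock 2 (0.0775) or mock 3 (0.124), and without the count filter (0.0538). Yars2 was at 25.6, 21.5 and 23.1 CPM in tatcre against 15.3, 20.1 and 18.8 CPM in mock libraries (log2 fold change 0.37, edgeR adjusted p = 0.0456). That call ended without tatcre 1 (0.187), tatcre 3 (0.0842), mock 1 (0.143) or mock 3 (0.0764). A block for the replicate number also ended all 3 calls (edgeR adjusted p = 0.0575 for Vars2, 0.067 for Fars2 and 0.0925 for Yars2), as it did that of Tfb2m (0.067).

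**Figure D3:**
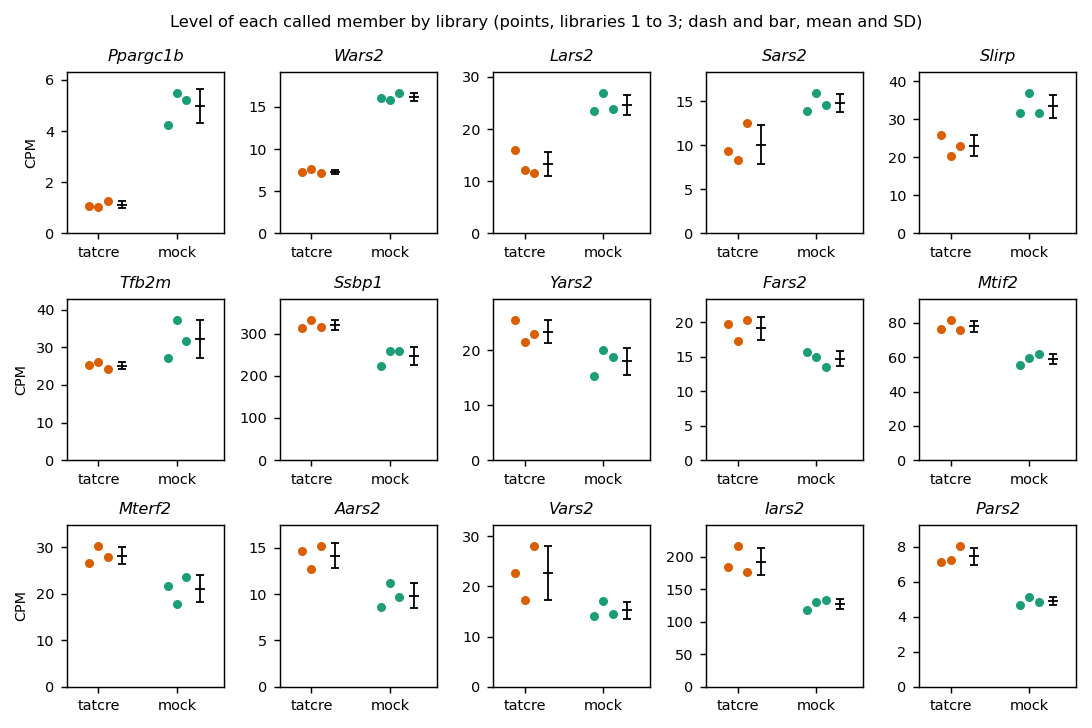
Scaled CPM (y axis, from 0, its own scale in each panel) of the 15 called members in tatcre libraries 1 to 3 (orange, left) and mock libraries 1 to 3 (green, right), with the mean and SD as a dash and bar. The groups are separate in all 15 panels; in Vars2 the lowest tatcre value, 17.3, and the highest mock value, 17.2, nearly meet.

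The remaining 7 synthetases were not called. Ears2, the glutamate enzyme, was at 4.76, 4.72 and 5.17 CPM in tatcre against 6.12, 7.34 and 5.58 CPM in mock libraries, and Rars2, the arginine enzyme, at 62.9, 80.1 and 67.7 CPM in tatcre against 78.4, 88.8 and 88.6 CPM in mock libraries. The values of Ears2 did not overlap and those of Rars2 did through tatcre 2 (edgeR adjusted p = 0.118 and 0.0663), and Rars2 was called lower without that library (0.0113) and without the count filter (0.0111). Tars2, the threonine enzyme, was at 59.5, 58.9 and 64.8 CPM in tatcre against 48.1, 58.3 and 51.7 CPM in mock libraries (edgeR adjusted p = 0.117; 0.031 with upper-quartile factors and 0.0193 with library size alone). Cars2, Hars2, Mars2 and Nars2, for cysteine, histidine, methionine and asparagine, had log2 fold changes of -0.06, 0.02, 0.28 and 0.18. Mars2 was called higher only when tatcre 1 was left out (edgeR adjusted p = 0.0428).

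For comparison cytosolic and dual tRNA synthetase genes, not only those for the same amino acids, and subunits of their complex were followed in the same libraries. Of 23 cytosolic or dual synthetase genes and complex subunits 5 were called lower (21.7%) and 0 higher, beside 16.3% and 10.8% of all genes tested. Another 2, Gars and Qars, both with negative log2 fold changes, had an unadjusted p under 0.05. Log2 fold changes over the 23 ran from -0.67 to 0.16, against -1.14 to 0.61 in the mitochondrial set. The largest cytosolic fall was Yars, at 63.6 ± 5.68 CPM in tatcre and 101 ± 4.59 CPM in mock cells (log2 fold change -0.67, edgeR adjusted p = 0.000337). Eef1e1, a subunit of the multisynthetase complex, averaged 49.4 ± 2.18 CPM in tatcre and 73.2 ± 7.11 CPM in mock cells, and Cars, the cytosolic cysteine enzyme, 97.3 ± 6.98 CPM in tatcre and 121 ± 5.81 CPM in mock cells. For tyrosine and alanine the mitochondrial gene was called higher and the cytosolic gene lower, Yars2 at 0.37 beside Yars at -0.67 and Aars2 at 0.53 beside Aars at -0.27. For tryptophan and leucine the mitochondrial gene fell while the cytosolic gene was not called, with Wars at -0.12 (95% interval -0.34 to 0.11) and Lars at 0.16 (95% interval -0.03 to 0.36). Differences between the genes of a pair were not tested.

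**Figure D4:**
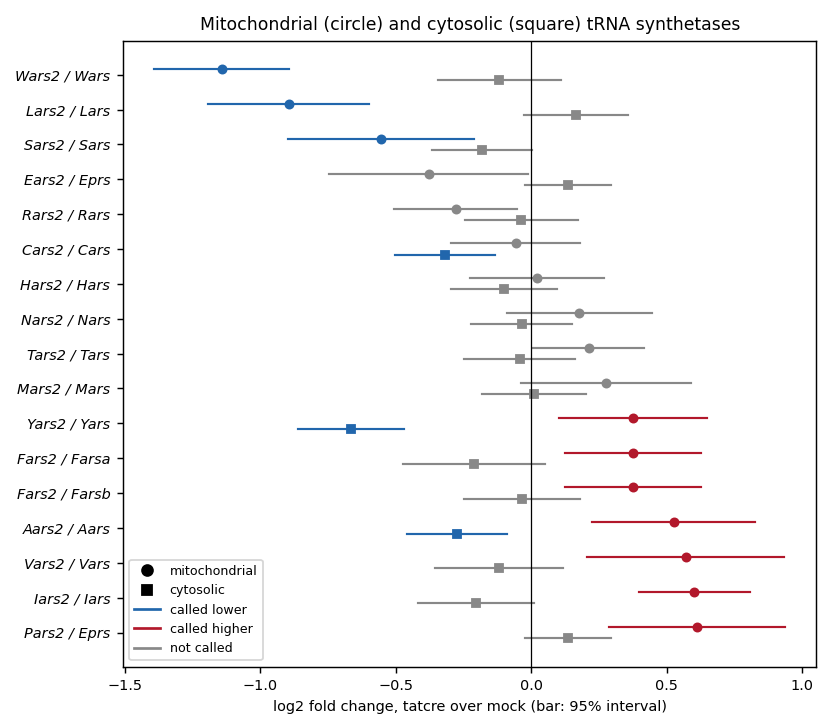
Log2 fold changes of tatcre over mock (x axis) with 95% intervals are paired by amino acid down the y axis, circles for the mitochondrial synthetase and squares for the cytosolic enzyme; Eprs stands beside both Ears2 and Pars2, and Fars2 beside both cytosolic subunit genes. The circles run from -1.14 (Wars2) to 0.61 (Pars2), and the squares from -0.67 (Yars) to 0.16 (Lars).

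Among the 6 translation factors only Mtif2 was called, and it rose (16.7%, beside 10.8% of all genes tested called higher). MTIF2 brings the initiator tRNA to the mitochondrial ribosome. Its gene (ENSMUSG00000020459, chromosome 11, 29525352 to 29545452) was at 76.2, 81.9 and 75.9 CPM in tatcre against 55.7, 59.5 and 61.7 CPM in mock libraries. Every tatcre library was above every mock library (log2 fold change 0.40, SE 0.08, edgeR adjusted p = 0.00401). Mtif3, the gene of the other initiation factor, averaged 15.2 ± 0.837 CPM in tatcre and 17.4 ± 1.02 CPM in mock cells, with all tatcre values below all mock values (edgeR adjusted p = 0.198). Tufm, the elongation factor that delivers charged tRNAs, was at 3.12, 3.55 and 3.97 CPM in tatcre against 4.84, 3.78 and 4.30 CPM in mock libraries, from 76 to 128 counts. Its interval was wide (log2 fold change -0.28, 95% interval -0.72 to 0.16). Tsfm, which recharges TUFM with GTP, lay at -0.18, and Gfm1 and Gfm2, the genes of the translocation and recycling G factors, at 0.05 and -0.08 on the log2 scale, and none was called.

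In the wider list of translation and ribosome assembly factors 2 of 21 tested genes were called lower and 2 higher (9.52% each, beside 16.3% and 10.8% of all genes tested). Qrsl1, the catalytic subunit of the amidotransferase that makes glutaminyl-tRNA in mitochondria, rose 2.60-fold, with 36.2 ± 3.16 CPM in tatcre and 13.9 ± 1.01 CPM in mock cells (edgeR adjusted p = 1.04e-05). Its log2 fold change of 1.38 stands beside a highest value of 0.61 among the 45 members. Its partner subunit gene Gatb averaged 5.89 ± 0.226 CPM in tatcre and 8.79 ± 0.982 CPM in mock cells and was called lower (edgeR adjusted p = 0.0125). The third subunit gene, Gatc, averaged 51.5 ± 5.43 CPM in tatcre and 61.6 ± 9.46 CPM in mock cells and was not called; Gatb and Gatc were named after their values were seen. Mtrf1, of the release factor family, averaged 18.0 ± 0.353 CPM in tatcre and 12.7 ± 0.469 CPM in mock cells. Oxa1l, the insertase that takes up new mitochondrial proteins, averaged 42.9 ± 7.41 CPM in tatcre and 61.5 ± 5.51 CPM in mock cells, and both were called (edgeR adjusted p = 0.00456 and 0.011).

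Of the 15 calls among the members, 8 held under all 12 alternatives of scaling, filter, test, block and left-out library. The 4 falls among them were Ppargc1b, Wars2, Lars2 and Slirp, and the 4 rises Ssbp1, Mtif2, Iars2 and Pars2. Over these alternatives the log2 fold change ran from -2.24 to -2.02 for Ppargc1b, -1.17 to -1.04 for Wars2, -1.06 to -0.79 for Lars2 and -0.64 to -0.43 for Slirp. It ran from 0.30 to 0.48 for Ssbp1, 0.36 to 0.51 for Mtif2, 0.51 to 0.71 for Iars2 and 0.55 to 0.71 for Pars2. The 18 members that were neither called nor had an unadjusted p under 0.05, leaving aside Gabpa, Polrmt, Twnk and Tufm, had log2 fold changes from -0.54 to 0.30 and edgeR adjusted p-values from 0.175 to 0.942. In RefSeq 15 of the 45 members overlap a protein-coding gene, among them 2 called members, Slirp and Iars2, by at most 122 bases. A noncoding gene, Gm40912, overlaps the called member Fars2 by 20270 bases.

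**Figure D5:**
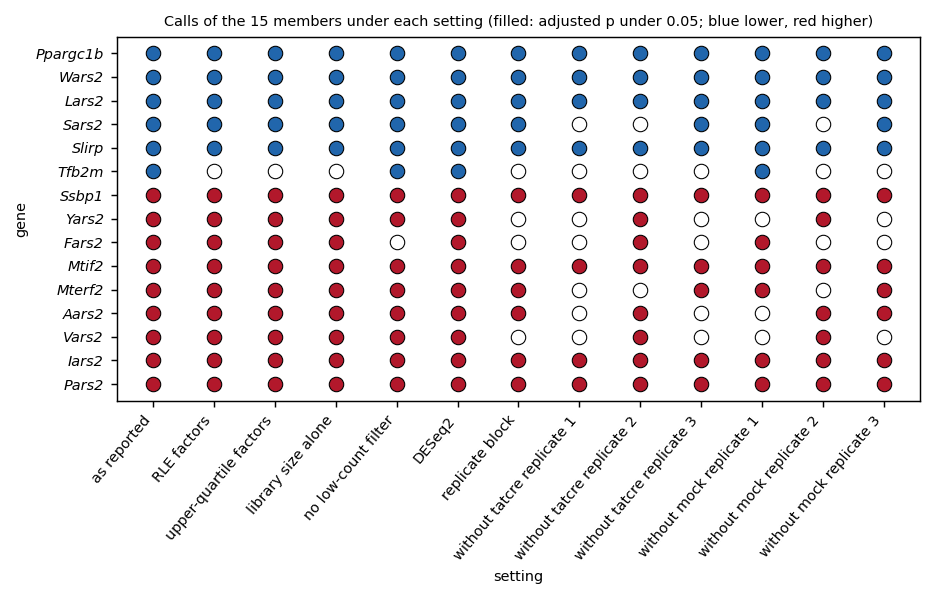
For each of the 15 called members (y axis, by log2 fold change) a circle is filled where the call held under the setting on the x axis, blue for lower and red for higher, and open where the adjusted p was 0.05 or more. The rows of Ppargc1b, Wars2, Lars2, Slirp, Ssbp1, Mtif2, Iars2 and Pars2 are filled throughout, and that of Tfb2m is open under 9 of 12 alternatives.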

How the data were processed

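Raw counts per Ensembl gene were deposited, 1 file per library. Per the submitters' processing notes the tools were Trimmomatic, TopHat2, SAMtools, HTSeq and MACS2 with build mm10. Per the labels' protocols a stranded kit was used; the counting's strand setting (not given in the sources used here) is unknown, so reads of overlapping or near-identical genes can be misassigned. Symbols matched 48349 of 48795 gene IDs. Gene spans and promoters are those of RefSeq on GRCm38.

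Genes were kept with filterByExpr (minimum count 10, minimum total 15). The 3 tatcre libraries were compared with the 3 mock libraries in edgeR 4.0.16 under R 4.3.3, using its quasi-likelihood test, TMM scaling and Benjamini-Hochberg adjustment over all genes tested. The alternatives were RLE, upper-quartile or no scaling factors, no low-count filter, DESeq2 1.42.0, a block for the replicate number, and leaving out each library in turn. An SE is the log2 fold change divided by the root of the F statistic, and 95% intervals use the test's degrees of freedom. No replicate pair agreed within sampling noise (chi-square per degree of freedom at least 7.5). The peak lists were used only for counts of peaks and for the place of 1 peak.

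The members and the lists of other genes were chosen with earlier results of these data known. Per-library values are given for members called, members with an unadjusted p under 0.05, and Tfam, Nrf1, Gabpa, Polrmt, Polg, Twnk and Tufm, and for each other list the 3 called genes of smallest adjusted p are named. Of the symbols in those lists 1, Mtres1, was not matched. A B cell marker and an overlapping gene are not reported here.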

Additional observations from a re-analysis of the deposited data

How the results depend on the processing

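The number of members called lower ran from 4 to 8 over all 12 alternatives, against 6 as reported. Falls over all genes ran from 1894 (library size alone) to 2986 (no low-count filter), against 2536 as reported. Members called higher numbered 14 with upper-quartile factors and 14 with library size alone, and 5 to 9 with 1 library left out (5 without tatcre 1, and 5 without tatcre 3). Rises over all genes numbered 2614 with library size alone and 2229 with upper-quartile factors, against 1679 as reported. With 1 library left out they numbered 998 (without mock 2) to 1681, and 1002 without tatcre 1. With library size alone all genes had a median of 0.13 on the log2 scale, against 0.02 as reported, and falls then make up 42% of calls (48.5% with upper-quartile factors), against 60.2% as reported. Gabpa, not called in any setting, had a log2 fold change of -0.0145 without the count filter, against 0.01 as reported, and of -0.0373 to 0.0442 with 1 library left out. Of the other values for the 27 named members, 269 kept direction and side of the threshold, 34 lost the call and 18 gained it.

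Tatcre 1 and tatcre 3 correlated best with the mock library of their own number (0.056 and 0.226), but tatcre 2 did so with mock 1 (0.248, against -0.032 with mock 2), and no label ties a number to a mouse, so the replicate block was kept as an alternative. With the replicate block 5 members were called lower and 6 higher, and 2108 genes fell and 1313 rose. Counts were low for Ppargc1a, Esrra and Tufm, so a difference in these genes could have been missed. Ppargc1b also had low counts, yet it was called lower under all 12 alternatives. Why these counts were low was not tested.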

Other observations

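Of the 3 YY1 ChIP peak lists the naive list holds a peak on the mitochondrial chromosome, 1 of 2349 peaks, at positions 15398 to 16187 as deposited. The tatcre list of 2069 peaks and the mock list of 999 peaks hold none there. Each list comes from 1 library and gives no score or control, so the difference has no replicate check. The tatcre list is longer than the mock list although Yy1 RNA was nearly absent in tatcre cells. Whether listed peaks mark YY1 binding was not tested.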
